A study of Mus musculus with 8 samples.

Results

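The insulin-like growth factor (IGF) axis was described through 10 genes: the ligands Igf1 and Igf2, the receptors Igf1r, Igf2r and Insr, and the binding proteins Igfbp2, Igfbp3, Igfbp4, Igfbp5 and Igfbp7. They were taken by symbol from the rows on primary chromosomes, and all 10 were found among 52778 rows and passed the filter on low values, which left 15541 rows for testing. RNA sequencing libraries came from ventricular heart tissue of mouse embryos at embryonic day 11.5. In 4 libraries (cKO) the embryos carried floxed Rps19bp1 alleles (Rps19bp1 fl/fl) and 1 copy of Xmlc2-Cre, a transgene given as active in cardiomyocytes, so the other cells of the ventricle are not the stated site of deletion. The other 4 libraries came from embryos labelled only as control, and whether these carried the floxed alleles or the Cre is not stated. A genotype label of C57BL/6 WT stands on all 8 libraries, no drug treatment was applied, and all carry the same batch label. The submitters call the 4 libraries of each group biological replicates and do not say whether embryos were pooled.

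IGF1 and IGF2 are secreted peptides that act through the receptor tyrosine kinase IGF1R and, for IGF2, through the insulin receptor as well, and the signal runs by way of insulin receptor substrates to phosphatidylinositol 3-kinase (PI3K) and the kinase AKT. IGF2R has no kinase; it binds IGF2 and carries it to the lysosome. Binding proteins hold the ligands outside the cell and are cut by proteases that release them. In the midgestation heart, IGF2 from the epicardium, the cell layer covering the ventricle, is known as a mitogen of the compact myocardium.

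Values are TPM, a unit that scales each library to one fixed total and divides reads by transcript length, so levels can be set against each other between genes. The number of reads behind each value is not known from this table. Each library had 15336 to 15752 rows at 1 TPM or more. The targeted gene Rps19bp1 (chr15:80260614-80264306, GRCm38) stood at 15.0 ± 3.14 TPM in cKO and 39.9 ± 3.93 TPM in control (SD, n = 4), a log2 change of -1.37 (limma adjusted p = 0.000508). One text among the labels describes RNA from cultured cortical neurons. The summed level of 14 cardiomyocyte genes lay between 51680 and 56657 TPM over the 8 libraries, and that of 10 neural genes between 15.98 and 25.8 TPM. Of all tested rows, 994 passed a limma adjusted p of 0.05, which is 6.40%. In cKO 336 of them were higher (2.16% of tested rows) and 658 lower (4.23%). That split was 383 higher and 380 lower after quantile normalization, 385 and 414 after median-ratio scaling, and 388 and 396 after rescaling without mitochondrial and globin rows.

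Of the 10 genes of the axis, 3 passed the test: Igf1 rose, and Igfbp2 and Igfbp3 fell. In these 3 the cKO and control libraries did not overlap, against 15.6% of all tested rows (5.33% with cKO higher and 10.3% with cKO lower). The other 7 genes, which include the main ligand Igf2 and all 3 receptors, had log2 changes between -0.16 and 0.12 and did not pass. The median log2 change of the 10 genes was 0.04, beside -0.02 over all tested rows.

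The levels of the axis spanned a wide range. In control, Igf2 was first at a mean of 3408 TPM, the 24th most abundant of the tested rows. It was followed by Igf2r at 1096 TPM, Igfbp5 at 447 TPM, Igfbp4 at 304 TPM and Igfbp2 at 119.7 TPM, and the ranges of neighbours in this order did not overlap. Igfbp7 at 40.3 TPM, Igf1r at 33.0 TPM, Igfbp3 at 31.4 TPM and Insr at 28.1 TPM came next, and the ranges of neighbours among these overlapped. Igf1 was last at 18.5 TPM, below the range of Insr. In cKO the first 5 kept their order, but Igf1, at 25.8 TPM, overlapped Insr above it (29.2 TPM) and Igfbp3 below it (22.8 TPM). The 10 genes together made up 0.525% to 0.594% of each library's TPM.

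**Figure D1:**
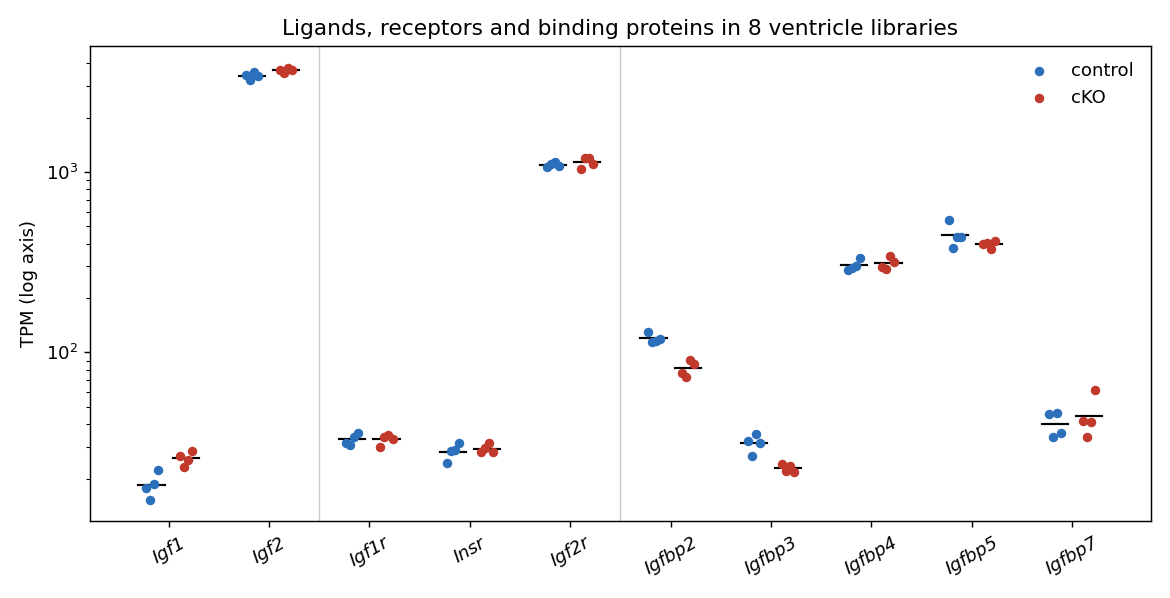
TPM on a log axis for 2 ligands, 3 receptors and 5 binding proteins, with 1 point per library (blue for 4 control, red for 4 cKO) and a line at each group's mean. Igf2 lies at 3221 TPM or more in every library, and Igf1, Igfbp2 and Igfbp3 are the genes whose red and blue points do not overlap.

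Igf1 (chr10:87858265-87937047, plus strand), the ligand that carries growth hormone's effects after birth and is made locally in many embryonic tissues, was higher in cKO. Control libraries 1 to 4 held 17.7, 15.3, 18.7 and 22.3 TPM, and cKO libraries 1 to 4 held 26.6, 23.1, 25.3 and 28.4 TPM. Every cKO library lay above every control library, though cKO 2 and control 4 stood close together. The means were 25.8 ± 2.23 TPM in cKO and 18.5 ± 2.92 TPM in control (SD, n = 4), so cKO held 139.5% of the control level. The difference on the log2 scale was 0.47 (SE 0.10, limma adjusted p = 0.031, exact two-sided permutation p = 0.0286, the smallest that 4 against 4 libraries can give). The call was lost when any 1 of cKO 1, 3 or 4 or control 1, 2 or 3 was left out (limma adjusted p from 0.0576 to 0.077), while the log2 change stayed between 0.38 and 0.56. It was also lost without the filter on low values (limma adjusted p = 0.107) and without limma's mean-variance trend (limma adjusted p = 0.0531).

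Igf2 (chr7:142650768-142666816, minus strand), the imprinted ligand expressed from the paternal allele, did not pass. Control libraries 1 to 4 held 3428, 3221, 3586 and 3398 TPM, and cKO libraries 1 to 4 held 3646, 3550.05, 3784 and 3689.9 TPM. Control 3 lay above cKO 2, so the groups overlapped. Igf2 had a log2 change of 0.11, with a 95% interval from -0.03 to 0.24 (limma adjusted p = 0.321). There was thus far more Igf2 than Igf1 RNA in both groups: the ratio of Igf2 to Igf1 lay between 129.98 and 153.7 in cKO and between 152.2 and 211 in control.

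The Igf2 locus holds other transcripts. H19, the maternally expressed non-coding RNA 72621 bases from Igf2, stood above it in every library at 8983 ± 528 TPM in cKO and 8703 ± 362 TPM in control (SD, n = 4, log2 change 0.04, limma adjusted p = 0.769). Igf2os, which overlaps Igf2 on the opposite strand, stood at 33.5 ± 1.24 TPM in cKO and 37.7 ± 2.82 TPM in control (SD, n = 4). Its groups did not overlap, but its log2 change of -0.16 did not pass (limma adjusted p = 0.137). Rows of 2 microRNA genes inside these hosts, Mir483 in Igf2 and Mir675 in H19, had log2 changes of 0.33 and 0.45 and did not pass either (limma adjusted p = 0.319 and 0.0793). Whether counting used the strand is not given in the sources used here, so reads of rows overlapping on opposite strands may not be told apart. Mir483 and Mir675 lie on the same strand as their hosts, so strand could not separate their reads. Ins2, 11839 bases from Igf2, was listed at 0 in 7 libraries and at 0.134 TPM in cKO 1, and Ins1 was listed at 0 in all 8.

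None of the 3 receptors passed. Igf1r (chr7:67952257-68233668, plus strand), the kinase receptor that transmits both ligands' signal, held 31.5, 30.8, 33.9 and 35.7 TPM in control libraries 1 to 4 and 30.05, 33.9, 35.0 and 33.1 TPM in cKO libraries 1 to 4. Its group means were both 33.0 TPM, and the 95% interval of the log2 change ran from -0.14 to 0.14 (limma adjusted p = 0.997). Insr (chr8:3150922-3279649, minus strand), the insulin receptor, held 24.3, 28.3, 28.7 and 31.3 TPM in control and 27.9, 29.5, 31.5 and 28.0 TPM in cKO. Control 1 was the lowest library and cKO 3 the highest, the other 6 values were interleaved, and the interval of its log2 change of 0.06 ran from -0.11 to 0.23 (limma adjusted p = 0.698). The ratio of Insr to Igf1r was 0.887 ± 0.0348 in cKO and 0.853 ± 0.0633 in control (SD, n = 4), so Insr RNA was a little below Igf1r RNA on average in both groups.

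Igf2r (chr17:12682406-12769706, minus strand), the maternally expressed clearance receptor, was far above the kinase receptors. Control libraries 1 to 4 held 1060.3, 1108, 1135 and 1079 TPM, and cKO libraries 1 to 4 held 1039.8, 1197, 1196 and 1099 TPM. The lowest of the 8 values and the 2 highest were all in cKO, so the groups overlapped, and the interval of the log2 change of 0.05 ran from -0.09 to 0.18 (limma adjusted p = 0.688). The ratio of Igf2r to Igf1r was 34.4 ± 0.872 in cKO and 33.3 ± 2.37 in control (SD, n = 4). Airn, the non-coding RNA that overlaps Igf2r on the opposite strand and silences the paternal Igf2r allele, held 86.9, 90.7, 87.4 and 98.5 TPM in control and 102.5, 106, 134 and 106 TPM in cKO. Every cKO value of Airn was above every control value, but the log2 change of 0.30 did not pass (limma adjusted p = 0.0646).

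Igfbp2 (chr1:72824480-72852474, plus strand) was lower in cKO. IGFBP2 binds IGF2 with high affinity and is abundant in embryonic tissues. Control libraries 1 to 4 held 129.8, 115, 116 and 118 TPM, and cKO libraries 1 to 4 held 76.9, 73.4, 91.2 and 86.7 TPM. The highest cKO library, cKO 3, stayed well below the lowest control library, control 2. The means were 82.0 ± 8.30 TPM in cKO and 119.7 ± 6.92 TPM in control (SD, n = 4), so cKO held 68.5% of the control level. On the log2 scale the change was -0.54 (SE 0.07, 95% interval -0.71 to -0.38, limma adjusted p = 0.00431, exact permutation p = 0.0286, again the smallest possible). It passed under all 18 other settings tried, with log2 changes from -0.60 to -0.49.

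Igfbp3 (chr11:7206086-7215498, minus strand) fell as well. IGFBP3 is the main IGF carrier in adult blood, and its gene has been described as a p53 target. Control libraries 1 to 4 held 32.3, 26.6, 35.1 and 31.5 TPM, and cKO libraries 1 to 4 held 24.0, 22.0, 23.4 and 21.8 TPM. All 4 cKO libraries lay close together and below control 2, the lowest of the controls. The means were 22.8 ± 1.06 TPM in cKO and 31.4 ± 3.54 TPM in control (SD, n = 4), which is 72.6% of the control level. The log2 change was -0.44 (SE 0.08, 95% interval -0.62 to -0.26, limma adjusted p = 0.0141), and it was lost under 1 of 18 other settings, without the filter on low values (limma adjusted p = 0.0571).

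Igfbp5, Igfbp4 and Igfbp7 did not pass. Igfbp5 (chr1:72858065-72874865, minus strand), which binds IGFs and extracellular matrix, lies 5590 bases from Igfbp2, and the 2 genes are transcribed towards each other. It held 541, 377, 434 and 436 TPM in control libraries 1 to 4 and 398, 402, 372 and 414 TPM in cKO libraries 1 to 4. Control 1 stood above the rest and control 2 within the cKO range. The log2 change of Igfbp5 was -0.16 with an interval from -0.37 to 0.05 (limma adjusted p = 0.336). It was -0.07 without control 1 and -0.24 without control 2, and did not pass in either case. Igfbp4 (chr11:99040005-99052655, plus strand), a binding protein generally found to restrain IGF action, held 286, 295, 302 and 333 TPM in control and 297, 291, 340.4 and 316 TPM in cKO. Its log2 change was 0.03 with an interval from -0.11 to 0.18 (limma adjusted p = 0.810). The tested gene nearest to it, Top2a, 15805 bases away and known for its role in chromosome segregation, fell by 0.38 on the log2 scale (limma adjusted p = 0.00976).

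Igfbp7 (chr5:77349240-77408045, minus strand) encodes a secreted relative that binds IGFs weakly and is common in blood vessels. It held 45.3, 33.9, 46.0 and 35.8 TPM in control libraries 1 to 4 and 41.4, 33.8, 41.2 and 61.8 TPM in cKO libraries 1 to 4. Its coefficient of variation in cKO, 27.0%, was the highest of the 10 genes in either group, and cKO 4 stood above all other libraries. The log2 change was 0.12 with an interval from -0.25 to 0.49 (limma adjusted p = 0.711), and it was -0.05 without cKO 4. The row overlaps Polr2b at its end on the opposite strand.

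The 5 binding protein genes summed to 857 ± 34.7 TPM in cKO and 943 ± 76.9 TPM in control (SD, n = 4), and these sums overlapped. The makeup of the sum differed: Igfbp2 took 8.93% to 10.5% of it in the cKO libraries and 12.4% to 13.5% in control. Igfbp3 took 2.42% to 2.86% in cKO and 3.12% to 3.76% in control. Igfbp4 took 35.1% to 39.2% in cKO and 27.7% to 34.9% in control, while its own TPM overlapped between groups. Its lowest share was in control 1, the library with the most Igfbp5. The share of Igfbp5 overlapped between groups, at 42.8% to 48.9% in cKO and 44.5% to 52.3% in control. That of Igfbp7 overlapped too, at 4.11% to 6.86% in cKO and 3.75% to 4.93% in control. Per library, the ratio of Igfbp2 to Igf1 was 2.90 to 3.61 in cKO and 5.30 to 7.5003 in control. These shares and ratios are given without a test, since they combine genes already described.

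**Figure D2:**
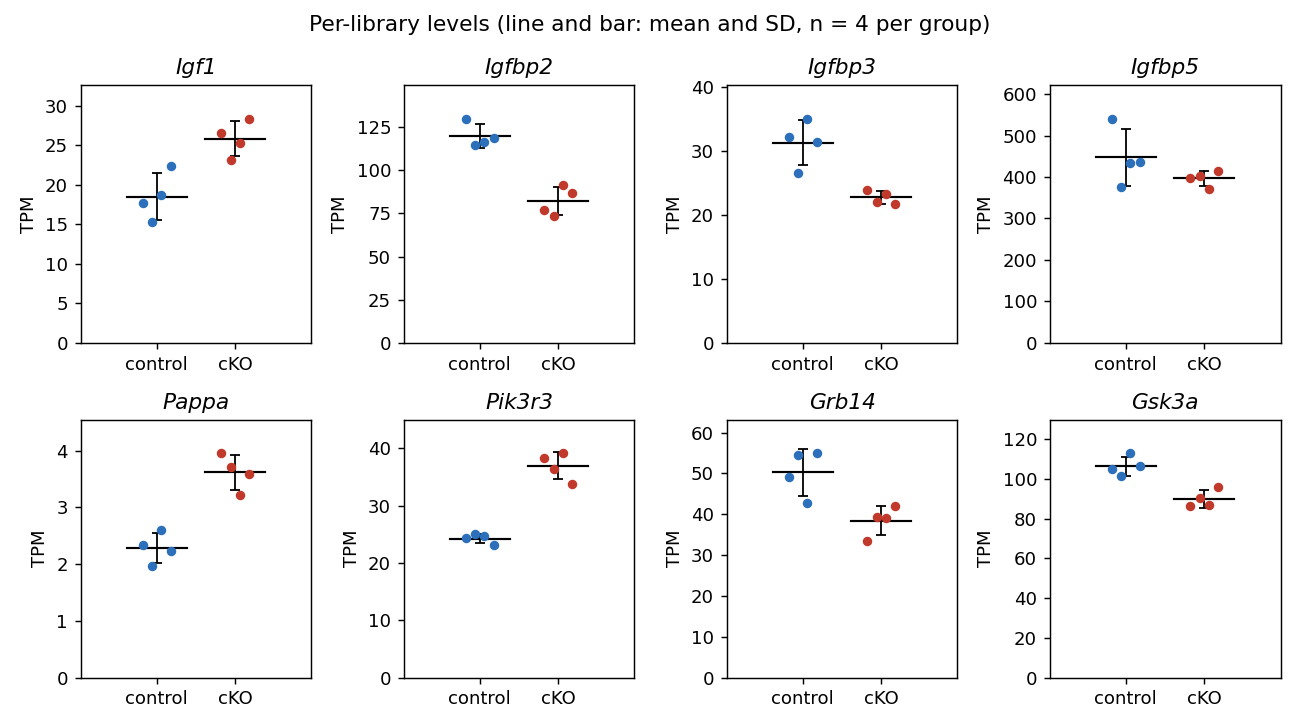
TPM in each library from 0 for Igf1, Igfbp2, Igfbp3, Igfbp5, Pappa, Pik3r3, Grb14 and Gsk3a, with the mean and SD of 4 libraries per group in black. Igfbp5 is the gene drawn whose cKO and control points overlap; control 1, at 541 TPM, is its highest library.

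The promoter windows of the 3 genes that passed are shown as sequence, and a link between them and the measured changes was not tested. They come from RefSeq on GRCm38.p6, read 5′ to 3′ on the gene's strand from 250 bases before a transcript start to 50 bases from it. Capitals mark matches to any of 5 motifs, searched on both strands. These were the letters TATAAA for the TATA box, the letters CCAAT for the box of that name, GGGCGG for the GC box and CACGTG for the E-box, with the p53 half-site consensus as the fifth. No 2 matches overlapped in the windows shown. Igfbp2 has a second window, which held none of these. The windows of Igfbp3 and Igf1 belong to a start inside the span of their table rows, which is also the RefSeq span of the gene. The sequence at the outer 5′ end of these genes is not shown.
Igfbp2, chr1:72824230-72824529, plus strand: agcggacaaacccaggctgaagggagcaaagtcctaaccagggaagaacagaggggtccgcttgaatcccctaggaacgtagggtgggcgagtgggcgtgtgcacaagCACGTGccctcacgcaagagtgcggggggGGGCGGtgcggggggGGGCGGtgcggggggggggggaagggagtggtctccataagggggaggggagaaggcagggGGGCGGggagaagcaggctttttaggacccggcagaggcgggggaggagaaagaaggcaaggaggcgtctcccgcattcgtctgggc
Igfbp3, chr11:7213874-7214173, minus strand: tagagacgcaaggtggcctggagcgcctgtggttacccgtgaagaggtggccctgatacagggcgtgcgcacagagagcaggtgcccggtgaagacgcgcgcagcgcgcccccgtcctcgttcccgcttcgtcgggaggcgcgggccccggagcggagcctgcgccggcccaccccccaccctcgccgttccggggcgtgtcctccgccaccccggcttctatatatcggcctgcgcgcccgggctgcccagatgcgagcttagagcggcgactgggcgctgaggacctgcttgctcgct
Igf1, chr10:87860861-87861160, plus strand: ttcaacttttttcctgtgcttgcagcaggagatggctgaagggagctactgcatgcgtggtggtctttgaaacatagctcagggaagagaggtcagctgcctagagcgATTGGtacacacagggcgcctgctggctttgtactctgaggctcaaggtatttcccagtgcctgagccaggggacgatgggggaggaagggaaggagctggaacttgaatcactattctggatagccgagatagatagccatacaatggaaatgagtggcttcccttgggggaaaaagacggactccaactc

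The first window of Igfbp2 held 3 GC boxes, beginning 113, 98 and 37 bases before the start, and 1 E-box, 142 bases before it. The Igfbp3 window held no match to the 5 patterns searched, and the Igf1 window held 1 CCAAT box, 142 bases before the start. Close variants of these patterns, such as other TATA-rich stretches, were not searched. Over all 32851 promoter windows of the same length, a GC box stood in 35.7%, a CCAAT box in 37.4%, a TATA box in 13.6%, an E-box in 7.15% and a p53 half-site in 8.36%. A window was at hand for 9 of the 10 genes, in 13 windows together, and 1 of the 13, an Igf2 window, held a p53 half-site. A match is a description of letters only.

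Beyond the 10 genes, 52 genes of the pathway were examined, of which 44 passed the filter. Of these 4 were called, 2 higher (Pappa and Pik3r3) and 2 lower (Grb14 and Gsk3a), beside 6.40% called over all tested rows. Their median log2 change was -0.05, beside -0.02 over all tested rows. The split of calls in this list moved with the scaling: 3 were higher and 0 lower after quantile normalization, and 3 higher and 1 lower after either of the other scalings. Irs1, not called here, was called under 3 of 18 other settings. The groups did not overlap in 17 of the 44, 5 with cKO higher and 12 with cKO lower. Over all tested rows this held for 15.6%, with cKO higher in 5.33% and lower in 10.3%.

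Remaining ligands, receptors and binding proteins were at or near 0. Igfbp1, which lies 3539 bases from Igfbp3, was listed at 0 in 7 libraries, Insrr stayed at or below 0.0853 TPM and Igfals at or below 0.101 TPM. Igfbp6 lay between 0.438 and 0.981 TPM. Igfbpl1, a binding protein-like gene, was the exception at 53.3 ± 7.57 TPM in cKO and 69.8 ± 9.81 TPM in control (SD, n = 4). Its groups overlapped, and its log2 change of -0.38 did not pass (limma adjusted p = 0.0836).

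Among 5 tested proteases of the binding proteins and their inhibitors 1 was called, beside 6.40% over all tested rows: Pappa rose. It encodes pappalysin-1, the secreted metalloprotease that cuts IGFBP4. Pappa (chr4:65124174-65357509, plus strand) held 2.34, 1.96, 2.61 and 2.23 TPM in control libraries 1 to 4 and 3.95, 3.71, 3.21 and 3.59 TPM in cKO libraries 1 to 4. All cKO values were above all control values. Its log2 change was 0.49 (SE 0.10, limma adjusted p = 0.0199), and as the gene is low it was 0.64 with a pseudocount of 0.1 and 0.24 with one of 5. Leaving out cKO 1 or control 2 ended the call (limma adjusted p = 0.0589 and 0.0517). Stc1 and Stc2, the stanniocalcins that block pappalysin, had log2 changes of -0.26 and -0.03, Htra1, a serine protease, of 0.27, and Adam12, another protease of binding proteins, of 0.13. These 4 did not pass (limma adjusted p from 0.185 to 0.929). Pappa2 was below 1 TPM in all libraries.

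The 3 IGF2 mRNA-binding proteins, which bind Igf2 and other transcripts in the embryo, did not pass. Igf2bp3 stood at 64.1 ± 4.25 TPM in cKO and 72.6 ± 2.43 TPM in control (SD, n = 4, log2 change -0.18, limma adjusted p = 0.0863). Igf2bp2 had a log2 change of -0.13 and Igf2bp1 of -0.05 (limma adjusted p = 0.123 and 0.613). Every cKO library lay below every control library for Igf2bp3 and Igf2bp2.

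Beside 6.40% called over all tested rows, 1 of 9 tested adaptors was called: Grb14 fell. It encodes an adaptor that binds the activated insulin receptor and restrains its signal. Grb14 (chr2:64912476-65022766, minus strand) held 49.0, 54.6, 42.7 and 54.9 TPM in control libraries 1 to 4 and 33.4, 39.4, 39.2 and 41.9 TPM in cKO libraries 1 to 4, with cKO 4 just below control 3. The log2 change was -0.38 (SE 0.09, limma adjusted p = 0.0398), and this call was lost under 13 of 18 other settings, among them all 3 scalings and leaving out cKO 1, 2 or 3 or control 1, 2 or 4 (limma adjusted p up to 0.129). Its relative Grb10, an imprinted adaptor of the same kind and the most abundant of the list, stood at 743 ± 59.0 TPM in cKO and 848 ± 13.2 TPM in control (SD, n = 4). The groups of Grb10 did not overlap, and its log2 change of -0.19 did not pass (limma adjusted p = 0.0885). The insulin receptor substrates had values on opposite sides of 0 and did not pass, Irs1 at 0.19 and Irs2 at -0.27 (limma adjusted p = 0.067 and 0.147).

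In the PI3K, AKT and mTOR list 2 of 23 genes were called, beside 6.40% called over all tested rows. Pik3r3 (chr4:116221400-116303056, plus strand), a regulatory subunit of PI3K, held 24.3, 24.99, 24.7 and 23.1 TPM in control libraries 1 to 4 and 38.3, 36.3, 39.1 and 33.9 TPM in cKO libraries 1 to 4. The controls lay within a narrow band and every cKO library was far above it, at 152% of the control mean. The log2 change of Pik3r3 was 0.58 (SE 0.06, limma adjusted p = 0.00075), and it passed under all 18 other settings. The other regulatory subunits, Pik3r1 and Pik3r2, had log2 changes of -0.11 and -0.07 and did not pass (limma adjusted p = 0.239 and 0.677). Gsk3a (chr7:25228258-25237851, minus strand), a kinase that AKT inhibits by phosphorylation, stood at 89.9 ± 4.54 TPM in cKO and 106 ± 4.86 TPM in control (SD, n = 4). Its log2 change was -0.24 (limma adjusted p = 0.0274), and the call was lost under 10 of 18 other settings, among them leaving out cKO 1, 2 or 3 or control 1, 3 or 4 (limma adjusted p up to 0.0769). The remaining 21 genes, which include Akt1, Akt2, Mtor and Foxo1, had log2 changes between -0.16 and 0.24.

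**Figure D3:**
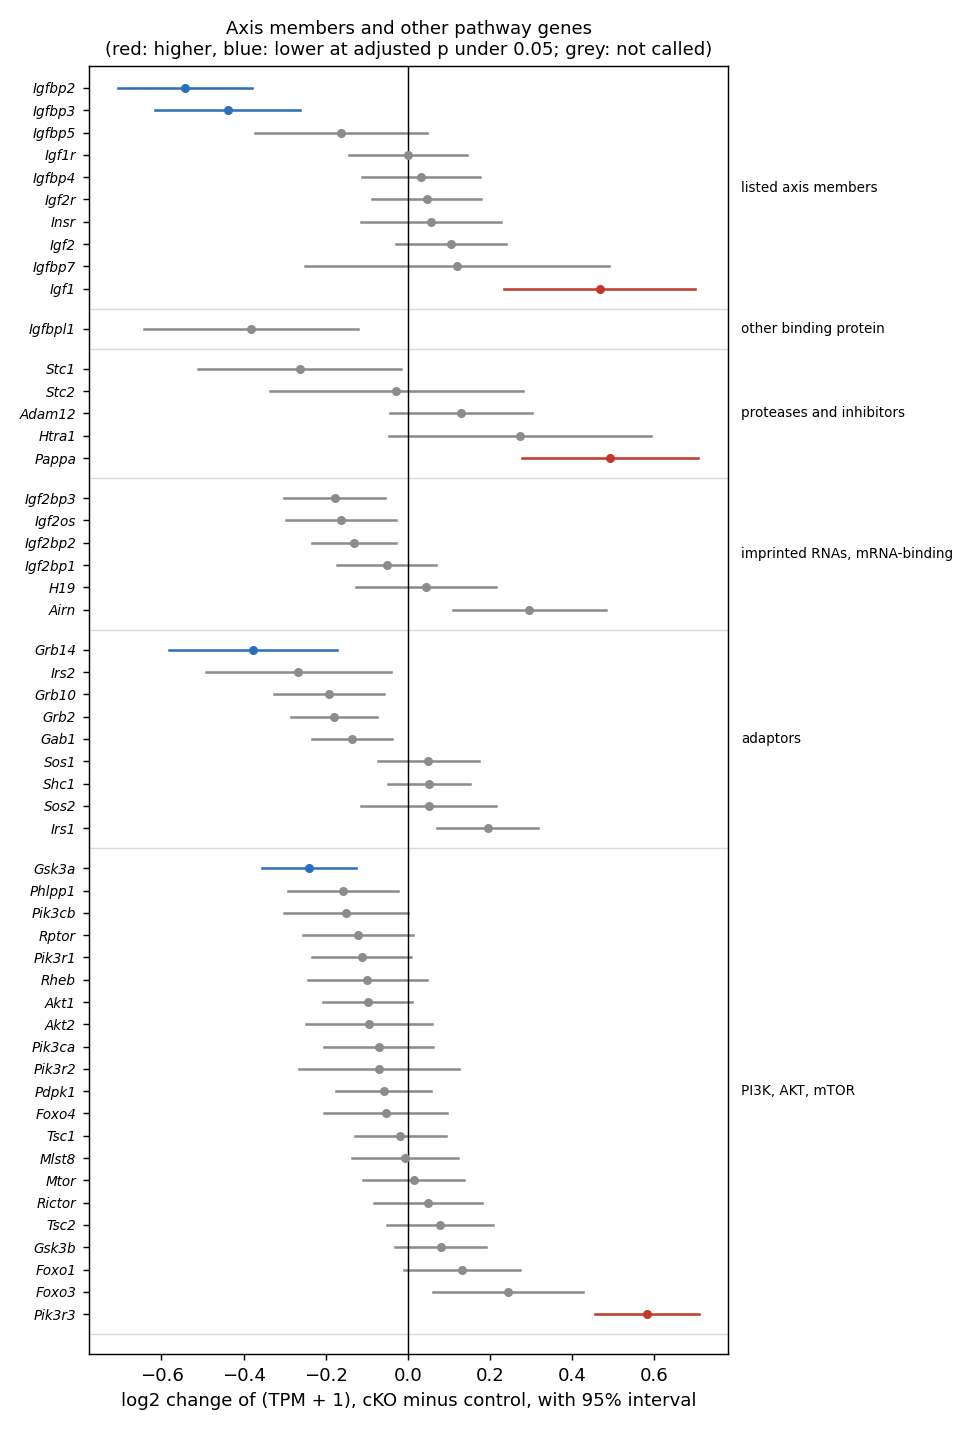
Log2 change of TPM + 1, cKO minus control, with its 95% interval from limma, for the 10 axis genes and 42 other tested pathway genes in groups. Called genes are red (higher: Igf1, Pappa, Pik3r3) or blue (lower: Igfbp2, Igfbp3, Grb14, Gsk3a), and Igf1r sits at the centre line.

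Marker genes of other ventricular cells were set beside these results. In bulk tissue, fewer cells of a type and less RNA per cell cannot be told apart. Of 11 epicardial genes 6 were called, all higher in cKO, where 2.16% of all tested rows were called higher. The summed level of the 11 was 484 to 595 TPM in cKO and 412 to 474 TPM in control. Of 12 mesenchymal genes 5 were called, all higher, with sums of 1099 to 1316 TPM in cKO and 745 to 961 TPM in control. Of these calls, those of Tbx18 and Col3a1 held under all 18 other settings, while Upk3b, Lrrn4 and Pdgfra each lost theirs under 8 and Wt1 under 7. Of 14 cardiomyocyte genes 1 was called, Nkx2-5, a cardiac transcription factor that was lower and lost its call under 13 of 18 other settings. The sums of 51680 to 54172 TPM in cKO and 52118 to 56657 TPM in control overlapped, and the median log2 change was -0.06. Tnni1, Myh6, Atp2a2 and Nkx2-5 were lower in every cKO library than in every control library, and Nppa was higher. The groups of the remaining cardiomyocyte genes listed overlapped. Over all tested rows the groups did not overlap in 15.6%. None of 11 endothelial, 8 tested macrophage or 10 erythroid genes was called. The macrophage genes had a median log2 change of 0.38, and their sum was 117, 112, 129 and 76.4 TPM in cKO libraries 1 to 4 against 72.0 to 100.5 TPM in control, so 3 cKO libraries lay above every control library. Endothelial sums were 923 to 1039 TPM in cKO and 867 to 926 TPM in control, with a median log2 change of 0.11. Erythroid genes had a median of -0.39, with sums of 1355 to 2918 TPM in cKO and 1529 to 5586 TPM in control. Elsewhere, 1 of 4 tested genes listed as smooth muscle (Myocd) and 1 of 6 listed as neural (Nefl) were called lower. Of all tested rows 4.23% were called lower. The epicardial and mesenchymal sums were higher in every cKO library than in every control library, as Igf1 and Pappa were, while Igfbp2 and Igfbp3 were lower. The part of the listed cell types in these results was not tested. Of 10 liver genes, 2 were tested and none called, and the list summed to 4.77 to 20.4 TPM in cKO and 2.82 to 5.04 TPM in control. Within this list Fgb was listed at 0 in all 8 libraries and Alb in 7, and the highest sum, in cKO 1, held 9.92 TPM of Afp.

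The genes most like each called member over the 8 libraries were found by Pearson correlation of log2(TPM + 1), given as a description that contains the difference between groups. For Igf1 they were Sbk1 (r = 0.97), Adamts8 (r = 0.97) and Slc50a1 (r = 0.96), which had log2 changes of 0.24, 0.52 and 0.18. None of these passed (limma adjusted p = 0.0836, 0.0936 and 0.0571). For Igfbp2 they were Bcdin3d (r = 0.98), Timm44 (r = 0.97) and Hnrnpd (r = 0.97), with log2 changes of -0.24, -0.22 and -0.32. All of these passed (limma adjusted p = 0.0465, 0.0196 and 0.0177). For Igfbp3 they were Hdac6 (r = 0.99), Iqgap3 (r = 0.99) and Zbtb22 (r = 0.98), with log2 changes of -0.11, -0.26 and -0.22. Iqgap3 passed (limma adjusted p = 0.0205), while Hdac6 and Zbtb22 did not (limma adjusted p = 0.162 and 0.0519).

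**Figure D4:**
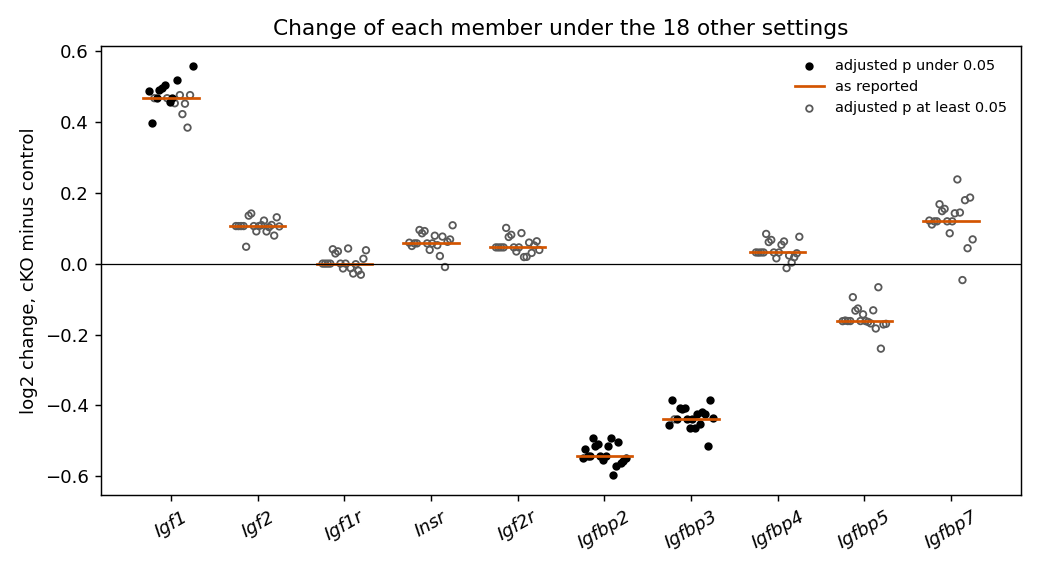
Log2 change of each axis gene under 18 other settings (1 point each, filled where the limma adjusted p was under 0.05), with an orange line at the value reported. All points of Igfbp2 and Igfbp3 lie below -0.38 and all of Igf1 above 0.38, while filled and open points of Igf1 are mixed.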

How the data were processed

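RNA was measured in 8 libraries, 4 cKO and 4 control, grouped by the sample titles. The authors deposited 1 table of TPM per gene row and library, in which each column sums to between 999999 and 1000000. Per the submitters' processing notes the build is GRCm38 and the tools named, without role or order, are FastQC, Trim Galore 0.6.7, HISAT2 2.2.1, StringTie 2.2.1, featureCounts and DESeq2. Per the labels, libraries were made after removal of ribosomal RNA, while the series text names a stranded mRNA kit, and which was used could not be settled. The annotation, and whether counting took strand into account, are not given in the sources used here. Coordinates are those of the table. TPM keeps no depth, so no counting error could be given and precision is the spread between libraries.

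Each TPM value plus a pseudocount of 1 was put on the log2 scale, and rows whose mean over the 8 libraries reached 1 TPM (15541) entered a two-sided limma fit (version 3.58.1, R 4.3.3) with eBayes and its trend option. Benjamini-Hochberg adjustment covered all 15541 rows, and a row was called at an adjusted p under 0.05. A fold change on this scale understates the change of low genes. Single values were also compared by an exact two-sided permutation test over 70 assignments. The procedure was tested on simulated data. Values there were drawn independently for each gene and library, so effects shared by the genes of a library were not covered.

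The 10 genes and the lists were chosen with earlier results of these data known. Named genes were the 10 genes, Rps19bp1, called pathway genes whose groups did not overlap, all other ligand, receptor, binding protein, imprinted and mRNA-binding genes listed, neighbours of the 10 genes at their loci, and the 3 genes most correlated with each called gene; other pathway and marker genes were named after their values were seen. The alternatives were other pseudocounts (0.1 and 5), filters (none, or a minimum of 5 TPM on average), 3 scalings, eBayes without a trend, array weights, a replicate block and leaving out each library. Of the tested pathway genes, 2 that were not called are counted but not reported here by name or drawn. Promoter sequences are from RefSeq (GRCm38.p6). Figures were drawn with matplotlib 3.10.9.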

Additional observations from a re-analysis of the deposited data

Results flagged for a closer look

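In 110 groups of 4 libraries examined (the 10 axis genes, Rps19bp1 and the other pathway genes that reached 1 TPM), 2 held a library far from the other 3, where chance alone flags about 1 group in 20. Airn, the antisense transcript of Igf2r, stood at 134.3 TPM in cKO 3 against 102.5 to 106 TPM in the other cKO libraries. Foxo3, a transcription factor that AKT keeps out of the nucleus, stood at 21.98 TPM in cKO 2 against 19.3 to 19.7 TPM in the other cKO libraries.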

How the results depend on the processing

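The calls of Igfbp2, Pik3r3 and Rps19bp1 held under all 18 alternatives and that of Igfbp3 under 17. Igf1 kept its call under 10 of 18, Pappa under 13 of the 17 that tested it, Gsk3a under 8 and Grb14 under 5 of 18, and the log2 changes of these genes kept their direction throughout; the cause was not tested. Without a filter on low values, 1 of the 10 axis genes, 1 of the other pathway genes and 347 of all genes were called. Without limma's trend, 2 other pathway genes and 609 of all genes were called. Leaving out 1 library gave 2 to 3 axis genes, 1 to 4 other pathway genes and 390 to 938 of all genes; 707 and 938 were called without cKO 2 and cKO 4, and 588 or fewer without any other library. A minimum of 5 TPM on average left Pappa without a value. Deviations of same-numbered libraries of the groups were only weakly correlated (r from -0.09 to 0.07). Among the cKO libraries, 2 of 4 were closest to the control of their own number. The main fit used no pairing, and these correlations cannot exclude one. With the replicate block, 3 axis genes, 1 other pathway gene and 420 of all genes were called. Changes close to 0 turned sign: that of Igf1r was -0.013 with array weights and ran from -0.031 to 0.043 when single libraries were left out, that of Insr from -0.0091 to 0.11, that of Igfbp4 from -0.012 to 0.076 and that of Igfbp7 from -0.046 to 0.24. The depth of the libraries is unknown, which limits what can be said of rows near 0.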
